A study of Homo sapiens with 6 samples.

Results

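A list of 10 genes tied to IRE1-dependent decay in other studies was examined in RNA of the H929 myeloma line. TGOLN2, which encodes an integral membrane protein of the trans-Golgi network, had lower counts after incubation with recombinant IRE1. Of the 7 genes that could be tested, it alone passed the threshold (adjusted p under 0.05 from edgeR). Its level in the IRE1-treated samples was 84.7% of the control mean. Of all tested genes, 22.7% changed in the same test, and when each library's trend with transcript length and GC content was removed TGOLN2 no longer passed and CD59 passed as higher instead. The other 6 substrates that could be tested (CD59, PER1, HGSNAT, PMP22, COL6A1 and TNFRSF10B) did not pass the test, SCARA3 and PDGFRB had too few counts to be tested, and TXNIP was not analysed here.

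The list holds CD59, PER1, HGSNAT, TGOLN2, SCARA3, PMP22, PDGFRB, COL6A1, TNFRSF10B and TXNIP. The genes were chosen by name, from reports of IRE1-dependent decay in other cells, with earlier results of these data known. No measured value of these libraries was part of the rule. For TXNIP the reported target is mainly a microRNA, as described below. Of the 57905 gene rows in the count files, 9 were matched to the list. The identifier of TXNIP in the annotation used here was not among those of the count files, and TXNIP may have a row there under an older identifier, which no table used here pairs with its symbol. Of the 9 genes with a row, 7 passed the filter on low counts and were tested, and 2 did not pass it.

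IRE1 is a sensor in the membrane of the endoplasmic reticulum whose cytosolic part carries a kinase and an RNase. When unfolded proteins accumulate, the RNase cuts XBP1 mRNA at a pair of stem-loops so that an intron is removed, and it also cuts other mRNAs, many of them translated at this membrane, whose pieces are then degraded (regulated IRE1-dependent decay, RIDD). The cut usually follows the G in the consensus CUGCAG, in the loop of a short hairpin. Plasma cells and the myeloma cells derived from them secrete large amounts of immunoglobulin. Myeloma cells are described as dependent on the response to unfolded proteins as a whole, of which IRE1 is a sensor.

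H929 (NCI-H929) is a cell line from a multiple myeloma, and all 6 samples came from it. Each sample was 5 μg of total RNA, kept in cleavage buffer for 1 h at 37 °C. The 3 IRE1-treated samples also received 2 μg of a recombinant human IRE1 fragment that spans residues 467 to 977, and the 3 control samples received no enzyme. Every reaction was then heated to 95 °C for 5 min, and libraries were made from RNA bound to poly-T beads. The design text calls the samples biological replicates. The substrate was purified RNA of 1 line, without cells or the nucleases that clear cut mRNA in them, and the enzyme lacked its luminal part. Each sample had a sequencing lane of its own, so sample and lane cannot be told apart. Reads before and after a cut enter the same gene count, and for the level of a gene in a sample of bulk RNA, fewer expressing cells and less RNA per cell cannot be told apart.

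The libraries held 19615715 to 25678499 counts on genes. All 11 plasma cell markers were expressed, with a summed level of 11592 to 11684 CPM (counts scaled to library size) in the controls and 11445 to 12663 CPM in the IRE1-treated samples. Markers of the cell types in which PDGFRB, COL6A1, PMP22 and SCARA3 are usually studied were low: 8 of 10 fibroblast markers had at most 10 counts in every library (COL1A2, LUM, THY1 and POSTN had 0), the 3 matched endothelial markers were at 0, and the Schwann cell markers S100B and SOX10 were at 0. The summed fibroblast level was 0.647 to 1.37 CPM in the controls and 0.902 to 1.31 CPM in the IRE1-treated samples. All 5 smooth muscle markers were measured, at 22.2 to 24.6 CPM and 22.02 to 25.5 CPM in sum.

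The consensus and its hairpin are shown first, because the cut usually falls there. The paper found such a hairpin at the cleavage site in only some of the mRNAs that IRE1 lowered. The absence of a match therefore does not show that an mRNA cannot be cut. CUGCAG, which is its own reverse complement, was searched on the mRNA strand of the longest coding transcript of each gene (GENCODE release 44 on GRCh37). RNAfold was run on each match together with the 15 bases before and after it. A hairpin match is one whose G was unpaired in a loop of 5 to 11 bases on a stem of 3 or more pairs. The loop need not hold the whole consensus, and a loop of 5 bases cannot. The 2 reference substrates, XBP1 and BLOC1S1, each had 1 such match, both in the coding sequence. The sequences are printed 5′ to 3′ with the consensus in capitals, so that the members can be read against them.
XBP1, coding sequence in exon 4 of 5 (chr22:29192100-29192129, minus strand): cuacgugcaccuCUGCAGcaggugcaggcc
BLOC1S1, coding sequence in exon 2 of 3 (chr12:56110729-56110758, plus strand): gagaggcuaucaCUGCAGcgaccugccuga
The XBP1 match lay in a loop of 7 bases on a stem of 7 pairs and is the downstream end of the excised intron. The BLOC1S1 match lay in a loop of 8 bases on a stem of 3 pairs.

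Of the 10 mRNAs in the list, 9 held CUGCAG at least once and 5 had a hairpin match (TGOLN2, SCARA3, CD59, PDGFRB and COL6A1). Over 12207 tested genes with a coding transcript, 86.7% held the consensus and 36.9% had a hairpin match. TGOLN2 had 9 matches, 3 of them in a hairpin, and SCARA3 had 8, of which 4 were in a hairpin. CD59 had 4 matches and 2 hairpins. PDGFRB and COL6A1 had 7 matches and 1 hairpin each. PER1 (5 matches), HGSNAT (6), PMP22 (3) and TXNIP (1) had no hairpin match, and TNFRSF10B had no CUGCAG in its 3998 bases. In all, 11 of the 50 matches in the list were hairpin matches (22%), and 15.5% of the 41523 matches in tested genes were. The hairpin matches of TGOLN2, CD59, PDGFRB and COL6A1 are printed because they are the candidate positions that can be shown.
TGOLN2, coding sequence in exon 2 of 5 (chr2:85554731-85554760, minus strand): gaguacggccuuCUGCAGgaaacgucucca
TGOLN2, coding sequence in exon 2 of 5 (chr2:85554450-85554479, minus strand): ucgcauccggagCUGCAGacuccaaaagac
TGOLN2, 3′ UTR in exon 5 of 5 (chr2:85548918-85548947, minus strand): uuugguuuugguCUGCAGuuuuuccaaagg
CD59, 3′ UTR in exon 6 of 6 (chr11:33731350-33731379, minus strand): ugaguggguucuCUGCAGcccucagauuau
CD59, 3′ UTR in exon 6 of 6 (chr11:33729573-33729602, minus strand): aauuagugccaaCUGCAGugagucagccua
PDGFRB, coding sequence in exon 9 of 23 (chr5:149510102-149510131, minus strand): caucuggucugcCUGCAGagaccucaaaag
COL6A1, coding sequence in exon 35 of 35 (chr21:47423508-47423537, plus strand): ucgcugcaguucCUGCAGaacuacacggcc
The TGOLN2 match at chr2:85554450-85554479 is the only printed list match with a loop of 7 bases, as in XBP1, on a stem of 4 pairs. The other loops had 5 bases (the other TGOLN2 matches and COL6A1), 6 bases (both CD59 matches) or 8 bases (PDGFRB). TGOLN2's G at the consensus stood at bases 398, 679 and 2355 of 6138, and that of COL6A1 at base 2763 of 4203. The count of mRNAs with a hairpin depended on the search. With a loop of exactly 7 bases, or with 25 bases folded on either side, only TGOLN2 and SCARA3 of the list kept a hairpin match, and 7.50% and 24.2% of the tested genes had a match under these settings. With CNGCAG, which also matches the upstream XBP1 site, 8 of the 10 mRNAs and 61.8% of the tested genes had a hairpin match, and TNFRSF10B and TXNIP still had none. A match is a description of the sequence and was not tested as a cut site.

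**Figure D1:**
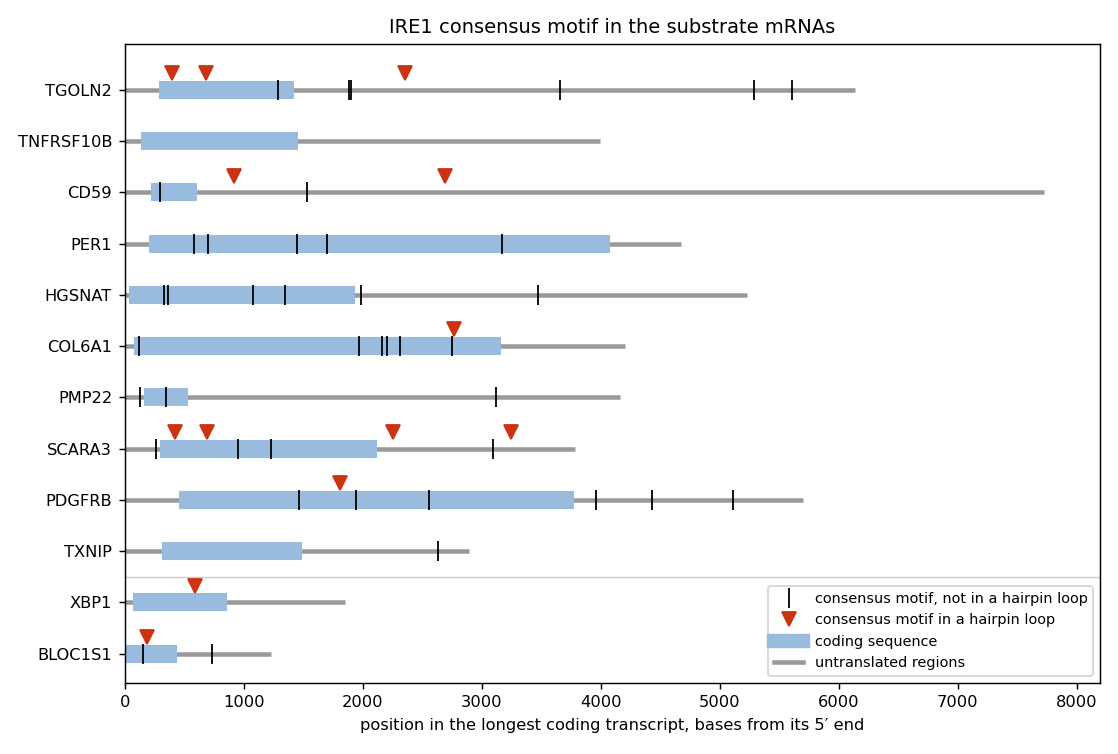
Position of CUGCAG along the longest coding transcript of the 10 listed genes and of XBP1 and BLOC1S1, in bases from the 5′ end. Boxes are coding sequence, triangles are hairpin matches (the G in a counted hairpin loop) and ticks are the other matches. TGOLN2 had 3 triangles, 2 of them in the coding sequence, SCARA3 had 4, and PER1, HGSNAT, PMP22, TXNIP and TNFRSF10B had none.

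The first comparison asked whether IRE1 lowered the gene count of each listed mRNA in the RNA bound by poly-T beads. The 3′ piece of a cut mRNA stays on the beads, so an unchanged count does not show that an mRNA was uncut. Levels are CPM after scaling with edgeR's TMM factors, which take most genes as unchanged, means are given with SD (n = 3), and fold changes are IRE1-treated against control on the log2 scale with their standard error (SE) from edgeR's quasi-likelihood test. Adjusted p-values are Benjamini-Hochberg values over all 14398 tested genes, with a threshold of 0.05. With this test 1 of the 7 tested substrates passed with lower counts and 0 with higher counts. Of all tested genes, 22.7% passed, 12.4% with lower and 10.3% with higher counts, so that a count of 1 in 7 is close to the background. At an unadjusted p under 0.05, 2 were lower (TGOLN2 and PER1) and 0 higher. The share of all tested genes at that unadjusted threshold was not computed, so no direction of the list is read from it. DESeq2 called 1 lower and 0 higher, next to 1502 lower and 1304 higher among 24945 genes with a count. With library size in place of TMM, 2 substrates passed as lower (TGOLN2 and PER1), and with each library's trend with transcript length and GC content removed, 1 passed, CD59 as higher. The split of all called genes also moved with these choices, from 1781 lower and 1489 higher to 2596 lower and 683 higher with library size only, and to 640 lower and 985 higher with the trend removed. The median log2 fold change of the 7 substrates was -0.0063 (range -0.24 to 0.06), and that of all tested genes was 0.0045, with quartiles at -0.17 and 0.15. In 2 of the 7 (TGOLN2 and PER1) the highest treated sample was below the lowest control, and in the other 5 the groups overlapped. Of all tested genes, 39.1% had groups that did not overlap, 20% with the treated samples lower and 19.1% with them higher.

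**Figure D2:**
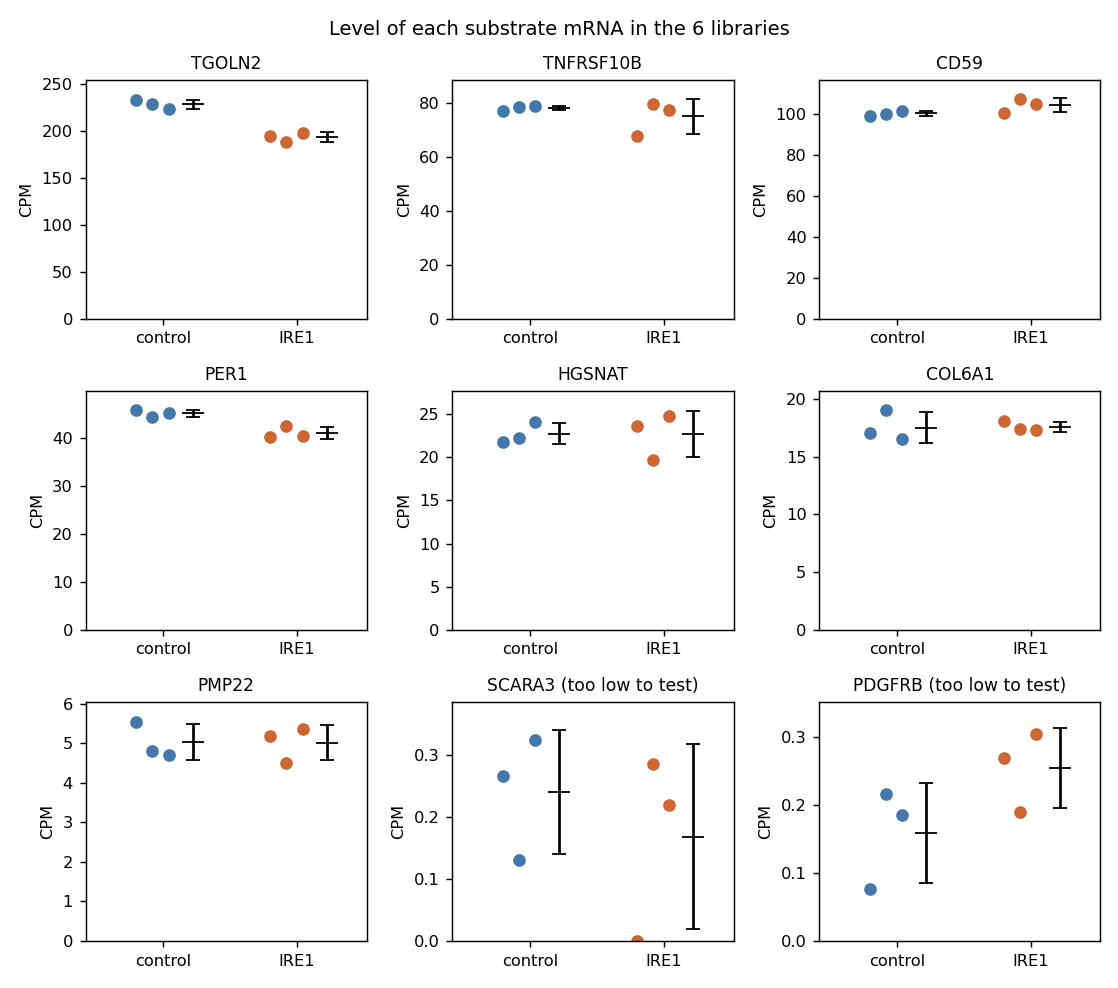
Level of the 9 measured substrates in the 3 control (blue) and 3 IRE1-treated (orange) libraries, in CPM from 0, with the mean and SD in black. The TGOLN2 points of the IRE1-treated libraries (188 to 197 CPM) lie below those of the controls (223 to 233 CPM), those of PER1 are separated by less, and the rest overlap.

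TGOLN2 (ENSG00000152291, chr2:85545150-85555374, minus strand) cycles between the trans-Golgi network and the cell surface and is used as a marker of that compartment. It was read at 233, 229 and 223 CPM in controls 1 to 3 and at 195, 188 and 197 CPM in IRE1-treated samples 1 to 3. All treated samples were lower than all controls, and the gap between the groups was wider than the spread within either. The mean fell from 228 ± 4.95 CPM to 193 ± 5.06 CPM (SD, n = 3). The log2 fold change was -0.24 (SE 0.0459, 95% interval -0.34 to -0.14, adjusted p = 0.00198 from edgeR with Benjamini-Hochberg adjustment). Of all tested genes, 17.4% had a lower log2 fold change. Leaving out any 1 of the 6 libraries kept the adjusted p under 0.05, at log2 fold changes of -0.26 to -0.22. TGOLN2's transcript of 6138 bases is in the 9th of 10 length classes, whose median log2 fold change was -0.17. With the length and GC trend removed, its log2 fold change was -0.08 and the call was lost (adjusted p = 0.252 from edgeR). An annotated lncRNA on the opposite strand shares 168 bases of its exons, and has no row in the count files.

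HGSNAT (ENSG00000165102, chr8:42995607-43057998, plus strand) encodes the acetyltransferase of the lysosomal membrane that acts in the breakdown of heparan sulfate. Controls 1 to 3 had 21.8, 22.3 and 24.1 CPM, and IRE1-treated samples 1 to 3 had 23.7, 19.7 and 24.8 CPM. The treated samples held both the lowest and the highest value, so the groups overlapped, and the means were 22.7 ± 1.23 and 22.7 ± 2.67 CPM (SD, n = 3). The log2 fold change was 0.00051 (SE 0.0874, 95% interval -0.18 to 0.19, adjusted p = 0.998 from edgeR). This interval, taken as percent change, ran from -12.03 to 13.8%, so that a decrease of the size measured for TGOLN2 lay outside it.

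TNFRSF10B (ENSG00000120889, chr8:22877646-22926544, minus strand) encodes the death receptor DR5, which binds the ligand TRAIL and starts apoptosis through caspases. Its level was 77.2, 78.6 and 78.8 CPM in the controls and 67.8, 79.8 and 77.5 CPM in the IRE1-treated samples. Only IRE1-treated sample 1 was below the controls, and sample 2 was above them. The means were 78.2 ± 0.884 and 75.02 ± 6.37 CPM (SD, n = 3), with a log2 fold change of -0.06 (SE 0.0597, 95% interval -0.18 to 0.07, adjusted p = 0.536 from edgeR). Without IRE1-treated sample 1 it was 0.011. RHOBTB2, on the opposite strand, shares 377 bases of its exons and had 852 to 1130 counts of its own.

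CD59 (ENSG00000085063, chr11:33724556-33758025, minus strand) encodes a lipid-anchored surface protein that blocks assembly of the membrane attack complex of complement. The controls read 99.3, 100.02 and 101.7 CPM, and the IRE1-treated samples read 100.7, 107.4 and 104.9 CPM. Treated sample 1 lay among the controls and the other two lay above them. The means were 100.3 ± 1.25 and 104 ± 3.39 CPM (SD, n = 3), and the log2 fold change was 0.06 (SE 0.0483, 95% interval -0.05 to 0.16, adjusted p = 0.443 from edgeR). CD59 has the longest transcript of the list, 7724 bases, of which 7119 are 3′ UTR. It is in the 10th length class, whose median log2 fold change was -0.25. With the length and GC trend removed, CD59 passed as higher, at 0.28 (adjusted p = 0.00180 from edgeR), and with library size only its direction turned, to -0.018. Another gene on the same strand shares 629 bases, or 5.96%, of its exons, and has no row in the count files.

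PMP22 (ENSG00000109099, chr17:15133090-15175609, minus strand) encodes a membrane protein of compact peripheral myelin and was the lowest of the tested substrates. It had 95 to 146 counts per library. The controls had 5.54, 4.81 and 4.72 CPM and the IRE1-treated samples 5.17, 4.51 and 5.36 CPM, with overlapping groups. The log2 fold change was -0.0063 (SE 0.134, 95% interval -0.29 to 0.28, adjusted p = 0.981 from edgeR). As percent change this interval ran from -18.2 to 21.2%, the widest of the list, and it holds the log2 fold change of TGOLN2, so that a decrease of that size was not detectable at this depth.

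COL6A1 (ENSG00000142156, chr21:47401684-47424964, plus strand) encodes the alpha 1 chain of collagen VI, a secreted protein of the extracellular matrix. Its levels were 17.0, 19.0 and 16.5 CPM in the controls and 18.1, 17.4 and 17.3 CPM in the IRE1-treated samples, all of which lay within the range of the controls. The means were 17.5 ± 1.33 and 17.6 ± 0.424 CPM (SD, n = 3). The log2 fold change was 0.0034 (SE 0.0825, 95% interval -0.17 to 0.18, adjusted p = 0.984 from edgeR).

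PER1 (ENSG00000179094, chr17:8043790-8059824, minus strand) encodes a repressor of the circadian clock, a protein that is made in the cytosol and acts in the nucleus. The controls had 45.6, 44.2 and 45.1 CPM and the IRE1-treated samples had 40.1, 42.5 and 40.3 CPM. The groups did not overlap, with the nearest samples at 44.2 and 42.5 CPM. The means were 45.0 ± 0.720 and 41.0 ± 1.29 CPM (SD, n = 3), or 91.1% of the control level in the treated samples. The log2 fold change of -0.13 (SE 0.0570, 95% interval -0.26 to -0.01) did not pass the adjusted threshold (adjusted p = 0.103 from edgeR). When scaled by library size alone it passed, at -0.21 (adjusted p = 0.0209 from edgeR), and was -0.04 with the length and GC trend removed. PER1 had no hairpin match.

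SCARA3, a scavenger receptor of the secretory pathway that protects against oxidants, and PDGFRB, a receptor tyrosine kinase for platelet-derived growth factor, were too low to test. SCARA3 (ENSG00000168077, chr8:27491385-27534293, plus strand) had 7, 3 and 7 counts in the controls and 0, 6 and 5 in the IRE1-treated samples. The ratio of its pooled counts, treated over control, each divided by the pooled scaled library sizes of the group, was 0.735 with an exact 95% interval of 0.311 to 1.66. The 0 in treated sample 1 allows up to 3 counts, or 0.162 CPM, and without this sample the ratio was 1.04. PDGFRB (ENSG00000113721, chr5:149493402-149535435, minus strand) had 2, 5 and 4 counts in the controls and 5, 4 and 7 in the treated samples, a ratio of 1.65 with an interval of 0.720 to 3.94. Both intervals hold 1 and cover counting error only, so that no change of either mRNA was shown. A decrease of the size measured for TGOLN2 lay within both.

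TXNIP encodes an arrestin-like protein that binds thioredoxin. It has been tied to IRE1 mainly through decay of a microRNA that represses it. By this route IRE1 acts on the microRNA and not on TXNIP mRNA, so TXNIP differs from the rest of the list. Its longest coding transcript has 2895 bases and 1 CUGCAG, in the 3′ UTR outside a counted hairpin. No level is given for it.

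Per kilobase of the longest coding transcript, the control level of the list spanned from 37.2 ± 0.807 CPM for TGOLN2 to 0.0279 ± 0.0129 CPM for PDGFRB (SD, n = 3). TNFRSF10B (19.6 ± 0.221), CD59 (13.0 ± 0.161) and PER1 (9.62 ± 0.154) followed TGOLN2 with no overlap between neighbours. HGSNAT (4.35 ± 0.236) and COL6A1 (4.17 ± 0.316) did not differ beyond their spread, and their order turned when merged exon length was used (2.54 and 3.16). PMP22 (1.21 ± 0.109) stood below them, and SCARA3 (0.0633 ± 0.0263) and PDGFRB were the lowest. Of all tested genes, 87.8% had a lower level per kilobase than TGOLN2, 47.6% a lower level than HGSNAT and 25.1% a lower level than PMP22.

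The reference substrates were read in the same way. BLOC1S1, a subunit of a complex of lysosome biogenesis and the RIDD substrate found most widely across cell types, had 27.3, 26.2 and 29.2 CPM in the controls and 12.4, 10.3 and 9.51 CPM in the IRE1-treated samples. The treated samples had 39.0% of the control level (log2 fold change -1.37, SE 0.0950, adjusted p = 1.25e-06 from edgeR), and 0.0833% of tested genes had a lower log2 fold change. It shares 493 bases of its exons with a same-strand gene that had 1 to 7 counts per library. ITGA7, on the opposite strand, shares 119 bases of the BLOC1S1 exons and had 499 to 717 counts of its own. The 95% intervals of all 7 tested list members lay above that of BLOC1S1, whose upper end was -1.16. XBP1 had a log2 fold change of -0.09 (SE 0.0436, adjusted p = 0.143 from edgeR), and ERN1, which encodes IRE1, was lower at -0.28 (SE 0.0494, adjusted p = 0.00117 from edgeR). The value of TGOLN2 thus stood between those of XBP1 and ERN1. XBP1 passed with library size only (-0.17), with the trend removed (-0.21) and without IRE1-treated sample 1 (-0.11, adjusted p = 0.0277 from edgeR). The call of ERN1 was lost with the trend removed (-0.05).

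**Figure D3:**
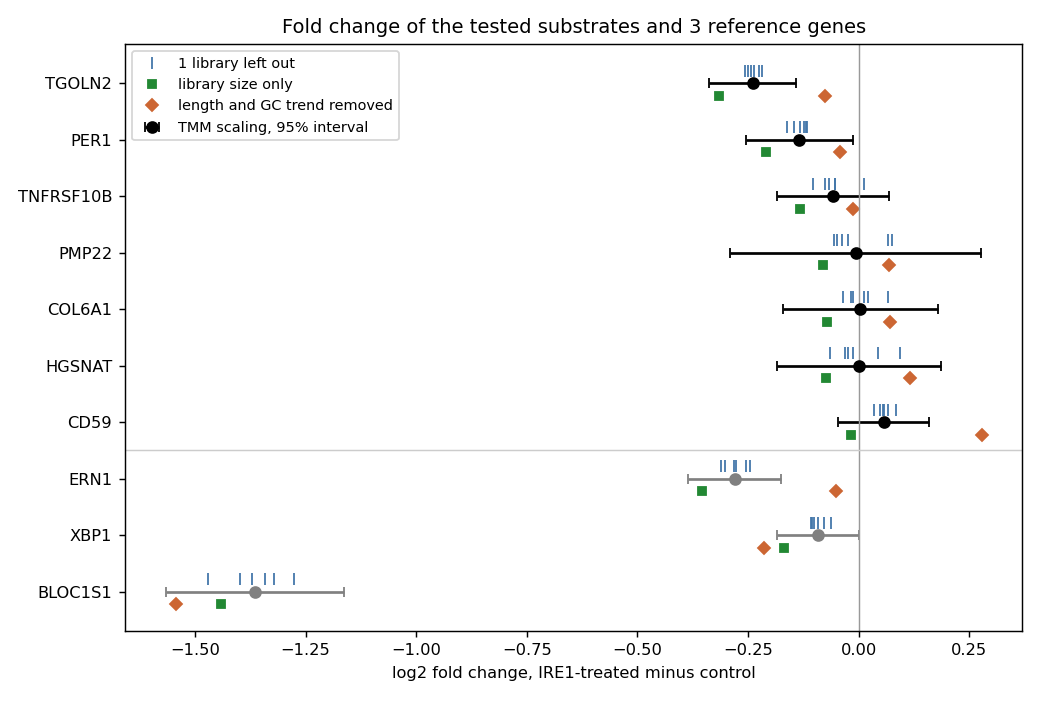
Log2 fold change of the 7 tested substrates (black) and of ERN1, XBP1 and BLOC1S1 (grey) with 95% intervals, with ticks for the fits that leave out 1 library, squares for scaling by library size only and diamonds for the fit with the length and GC trend removed. Only the interval of TGOLN2 (-0.34 to -0.14) and that of PER1 (-0.26 to -0.01) among the 7 lay below 0, and all lay to the right of BLOC1S1.

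Transcript length moved with the fold change across all genes. From the shortest to the longest of 10 length classes, the median log2 fold change fell from 0.21 to -0.25. The 7 tested substrates have transcripts of 3998 to 7724 bases, above the median of 3298 bases over all tested genes. TNFRSF10B, PMP22, COL6A1 and PER1 were in the 7th class, with a class median of -0.07, and HGSNAT in the 8th, with -0.12. TGOLN2 and PER1 had values below the median of their own class, and TNFRSF10B, PMP22, COL6A1, HGSNAT and CD59 had values above it. Genes with a hairpin match had a median log2 fold change of -0.05 and a median length of 4445 bases, and those without had 0.02 and 3114.5 bases. The part of length in either difference was not tested. Within the list, the 3 tested mRNAs with a hairpin match had log2 fold changes of -0.24 (TGOLN2), 0.0034 (COL6A1) and 0.06 (CD59). The 4 without had -0.13 (PER1), -0.06 (TNFRSF10B), -0.0063 (PMP22) and 0.00051 (HGSNAT), a range that overlaps the first.

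**Figure D4:**
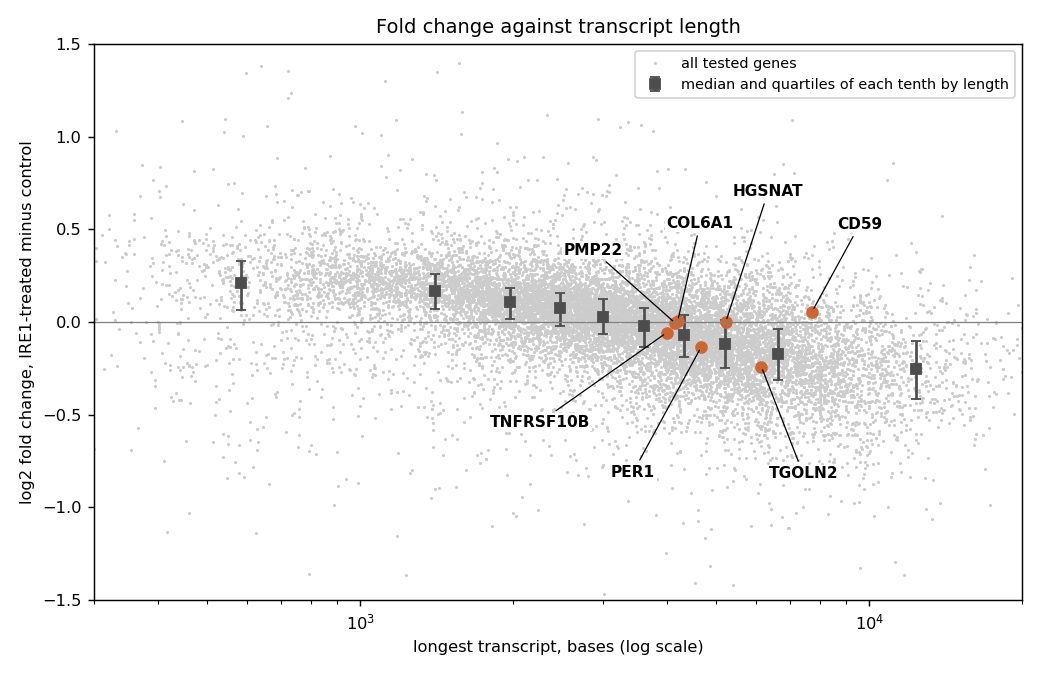
Log2 fold change against the length of the longest transcript (log scale) for all tested genes (grey), for the 7 tested substrates (orange) and as median and quartiles of 10 length classes (black squares); values beyond 1.5 in either direction are not drawn. TGOLN2 and PER1 lie below the line of class medians, and CD59, at 0.06, lies above the upper quartile of its class.

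Genes that work with the listed substrates were compared in the same fit, to see whether their pathways moved as a whole. Of 113 such genes 93 were tested, and 12 were lower, 6 higher and 75 not past the threshold, with a median log2 fold change of -0.04. That is 19.4% called, next to 22.7% of all tested genes. Together with 26 further mRNAs reported as IRE1 substrates, described last, 111 genes were tested, of which 16 were lower and 8 higher. With library size only, 30 of these 111 were lower and 4 higher, and with the length and GC trend removed 3 were lower and 7 higher.

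Among partners of TGOLN2 at the trans-Golgi network, 3 of 19 tested genes fell and 16 did not pass (median -0.08). That is 15.8% called, next to 22.7% of all tested genes. CPD, a carboxypeptidase that cycles through this compartment as TGOLN2 does, fell from 60.8 ± 2.08 to 41.2 ± 8.27 CPM (log2 fold change -0.56, adjusted p = 0.00123 from edgeR). AP1G1, a subunit of the AP-1 adaptor that sorts cargo there, fell by 0.32 on the log2 scale. IGF2R, the mannose 6-phosphate receptor that carries lysosomal enzymes, fell by 0.26. The call of CPD held with the trend removed, whereas those of AP1G1 (-0.12) and IGF2R (0.048) were lost.

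Among clock genes, the partners of PER1, 4 of 18 tested genes fell and 14 did not pass (median -0.08). That is 22.2% called, close to the 22.7% of all tested genes. CLOCK, the activator that PER proteins repress, fell from 18.0 ± 1.35 to 11.99 ± 0.191 CPM (log2 fold change -0.59, adjusted p = 0.000385 from edgeR). NR1D2, a nuclear receptor of the clock, fell by 0.47, PER2, a paralog of PER1, by 0.41, and BHLHE41, a repressor, by 0.28 on the log2 scale. None of these 4 calls held with the trend removed, where they lay between -0.31 and -0.24. That of NR1D2 was also lost without control 2, control 3 or IRE1-treated sample 2 (-0.47 to -0.39), and that of BHLHE41 without any 1 of the 6 libraries (-0.31 to -0.23) and with DESeq2 (-0.28).

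Of the TXNIP partners, 3 of 15 tested genes fell and 3 rose (median -0.03). That is 40% called, next to 22.7% of all tested genes. TXN and TXN2, the cytosolic and mitochondrial thioredoxins, rose by 0.39 and 0.33 on the log2 scale, and both calls held with the trend removed. With the replicate block added to that fit, TXN2 no longer passed (0.16, adjusted p = 0.0655 from edgeR). ARRDC4, a paralog of TXNIP, was lower by 0.38 and ITCH, the ubiquitin ligase that degrades TXNIP, by 0.32, and neither call held with the trend removed. The call of ARRDC4 was also lost without control 1, 2 or 3 or IRE1-treated sample 2 (-0.39 to -0.36).

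In the remaining groups few genes passed, where 22.7% of all tested genes did. For death receptor signalling 1 of 15 passed, and FADD, the adaptor that links DR5 to caspases, rose by 0.19 on the log2 scale. For complement regulators 1 of 3 rose, CLU, a secreted inhibitor of the same complex as CD59, by 0.20. In the PMP22 family 1 of 4 rose, EMP3, by 0.16, and among collagen VI chains and receptors 1 of 5 fell, ITGB1, an integrin chain, by 0.18. Of the 4 tested PDGF ligands and receptors 0 passed in edgeR or DESeq2, also at an unadjusted p under 0.05, and no class A scavenger receptor of 4 was high enough to test. None of these 4 calls held with the trend removed, and those of CLU, FADD and EMP3 were also lost with library size only (0.13, 0.12 and 0.09). That of FADD was lost as well with DESeq2 (0.20) and with no filter on low counts (0.18), and that of ITGB1 with upper quartile scaling (-0.18). With 1 library left out, CLU was lost without control 1, 2 or 3 or IRE1-treated sample 2 (0.19 to 0.21), FADD without the same 4 samples (0.17 to 0.23), ITGB1 without them as well (-0.21 to -0.11), and EMP3 without control 1, control 2 or IRE1-treated sample 2 (0.14 to 0.15).

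Of the 26 further mRNAs reported as IRE1 substrates in other systems, 18 were tested, and 4 fell, 2 rose and 12 did not pass (median -0.06). That is 33.3% called, next to 22.7% of all tested genes (12.4% lower and 10.3% higher). These 26 mRNAs too were chosen with earlier results of these data known. GEMIN5, a subunit of the complex that assembles spliceosomal particles, was the lowest, from 47.8 ± 2.57 to 26.5 ± 0.487 CPM (log2 fold change -0.86, adjusted p = 2.18e-06 from edgeR). This held in every alternative fit, at -0.93 to -0.72. MTDH, an RNA-binding protein of the endoplasmic reticulum membrane, fell by 0.28 and CANX, a chaperone of that membrane, by 0.26, whereas ERGIC3, which cycles between the endoplasmic reticulum and the Golgi, rose by 0.26 on the log2 scale. The calls of MTDH, CANX and ERGIC3 were lost with the trend removed.

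**Figure D5:**
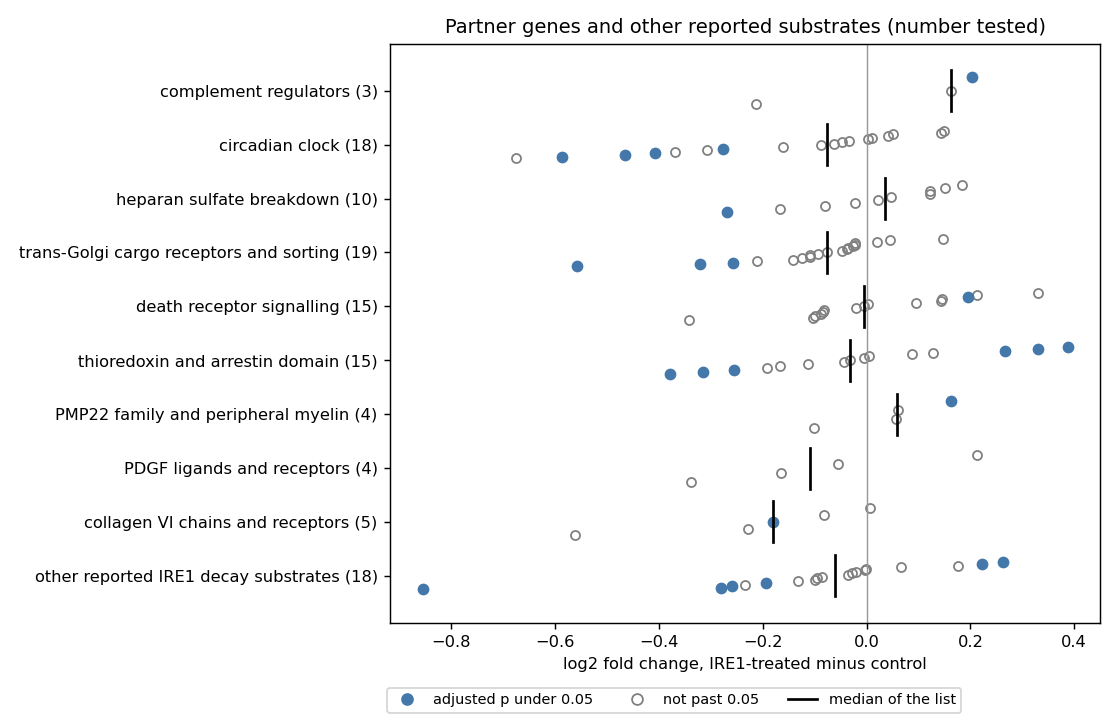
Log2 fold change of the tested genes of each partner list and of the other reported substrates, with filled points for an adjusted p under 0.05 (edgeR), open points for the rest and a bar at the median of the list; the number tested is in brackets. GEMIN5 (-0.86), CLOCK (-0.59) and CPD (-0.56) are the lowest filled points, and TXN (0.39) is the highest.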

How the data were processed

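Total RNA of H929 cells, incubated with recombinant IRE1 (3 samples) or without it (3 samples), was sequenced from poly(A)-containing mRNA in paired-end reads. According to the methods and the submitters' processing notes, the authors used cutadapt 1.12 for trimming, STAR 2.5.3a for alignment to GRCh37 and HTSeq 0.6.1p1 for counting per gene of Ensembl release 87, and deposited the raw counts of each library. The strand setting and overlap mode of HTSeq are not given in the sources used here, so genes that share exons are described. Besides those given above, PMP22 shares 582 bases with an opposite-strand entry without a row and 99 with a same-strand snoRNA at 0 counts. PER1 shares 30 bases with a same-strand gene at 0 counts. ERN1 shares 432 and 452 bases with opposite-strand lncRNAs without a row. No member has a pseudogene named after it in the annotation. The authors also deposited CPM for 12558 genes, used here only in an alternative. The notes name edgeR 3.24.3 as well, without its role.

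The 5 HTSeq summary lines (21.4 to 23.2% of each file's counts) were left out. Of 24945 genes with a count, 14398 passed edgeR's filter on low counts. They were fitted together without covariates (edgeR 4.0.16, R 4.3.3, TMM factors 1.02 to 1.03 in controls and 0.947 to 0.996 in IRE1-treated samples, quasi-likelihood test, Benjamini-Hochberg adjustment, threshold 0.05). In counts simulated from the means and library sizes of this comparison on 14398 genes, 88 of 100 planted 2-fold changes and 62 of 100 planted 1.5-fold changes were recovered, and 8 unchanged genes were called. Per-gene chi-square between libraries was at least 2.20, so none was a copy of another.

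The annotation was GENCODE release 44 on GRCh37, in which 55538 of 57905 identifiers have a name, and it gave transcript lengths and sequences. A further 2 partner symbols (ARNTL, GYLTL1B) were matched as BMAL1 and LARGE2. Hairpins were folded with ViennaRNA 2.7.2 in Python 3.11.15. The list, the partner genes and the markers were chosen with earlier results of these data known. Named are all list members, XBP1, BLOC1S1, ERN1 and changed partner genes (the 4 with the largest change where a list had more), except for items that are not reported here.

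The alternatives were DESeq2 1.42.0, upper quartile scaling, scaling by library size only, at least 10 counts in every library, no filter, limma 3.58.1 on log2 of the deposited CPM plus 1 or 0.1, a block for the replicate number, removal of each library's loess trend (span 0.5) with length and GC content of the transcript, the last 2 combined, and omission of each library.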

Additional observations from a re-analysis of the deposited data

How the results depend on the processing

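Of the 7 tested substrates, 1 passed in each alternative except library size only, where 2 did. With the length and GC trend removed, alone or with the replicate block, that substrate was CD59 as higher (0.28 in both) and no longer TGOLN2 (-0.08 in both), and TGOLN2 was the one in all other alternatives. The cause of this exchange was not tested. The number of changed genes among all tested was 1625 with the trend removed and 1317 with the trend and the replicate block, and 1630 to 4312 with 1 library left out (1681 without control replicate 1, 1630 without control replicate 2 and 1982 without IRE1 replicate 2). Changed genes among the partners and further reported substrates numbered 10, 8 and 15 to 30 under the same settings, with 15 without control replicate 2. No pairing by replicate number was seen. The deviations of same-numbered samples correlated at -0.04, -0.0050 and -0.11, and each control correlated best with another number. With 3 samples per group, this cannot exclude that same-numbered samples are paired. With the replicate block, 1 substrate (TGOLN2, -0.24), 20 of these genes and 2613 of all genes were called. The calls of BHLHE41 (-0.28), FADD (0.20), ITGB1 (-0.18) and EMP3 (0.16) were lost with it. The number of listed mRNAs with a hairpin was 2 with a loop of exactly 7 bases, 2 with 25 bases folded on either side and 8 with CNGCAG.

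Values near 0 changed sign without passing the threshold. HGSNAT lay at -0.0747 with library size only, -0.0109 with no filter, -0.000979 with at least 10 counts in every library, -0.00732 and -0.00796 with limma and pseudocounts of 1 and 0.1, and -0.00530 with the replicate block. COL6A1 lay at -0.0721 with library size only and -0.00837 with no filter, and CD59 at -0.018 with library size only. PMP22 lay at 0.0690 with the trend removed and 0.0754 with the block added. With 1 library left out, HGSNAT ranged from -0.0651 to 0.0941, PMP22 from -0.0566 to 0.0750, COL6A1 from -0.0359 to 0.0663 and TNFRSF10B from -0.104 to 0.0111. Of the partner genes, EMP3 (-0.0187 and -0.0219) and IGF2R (0.0475 and 0.0481) changed sign with the trend removed, without and with the block. Library size in place of TMM moved the median of all genes by -0.08. Depth limits SCARA3, PDGFRB and PMP22 most. Gene counts do not separate reads before and after a cut, so a loss confined to the 5′ piece of an mRNA lowers its count only in part.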
